A study of Mus musculus with 28 samples.

Results

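A set of 10 transcription factor genes that define or are shared by the endothelial lineage were followed through 28 RNA sequencing libraries of mouse bone marrow. They are the ETS factors Fli1, Erg and Ets1, the SoxF factors Sox7, Sox17 and Sox18, the blood and vessel factors Tal1 and Gata2, and the Krüppel-like factors Klf2 and Klf4. All 10 are among the 25251 genes measured. Endothelial cells (ECs) were sorted as CD45-Ter119-CD31+ cells and mesenchymal stromal cells (MSCs) as CD45-Ter119-CD31-CD166-Sca1+ cells of the bone lining, and mononuclear cells (MNCs) were taken from bone marrow. Mice were C57BL/6, 8 to 10 wk old, and either wild type at Flt3 (Flt3+/+, WT) or homozygous for a knocked-in internal tandem duplication of Flt3 (Flt3-ITD, ITD). The duplication is carried in the germline by every cell of the ITD mouse, so ECs and MSCs carry it as well as blood cells. Each genotype gave 5 EC libraries, 5 MSC libraries and 4 MNC libraries, with 100 sorted cells in each EC and MSC library and 200 cells in each MNC library.

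ETS factors bind a GGAA core and, in ECs, occupy the enhancers of many vessel genes, with Erg and Fli1 acting as maintenance factors of the adult endothelium. SoxF factors act with them in arterial and lymphatic vessel growth. Tal1 and Gata2 belong to a complex used both by ECs and by blood progenitors, erythroid and mast cells, and Ets1, Fli1, Erg, Klf2 and Klf4 are likewise used by lymphocytes, megakaryocytes, stem cells or myeloid cells. Klf2 and Klf4 are induced in ECs by flowing blood, restrain inflammation and promote an anticoagulant surface, and they are also among the genes that respond within minutes to stress.

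In the GRCm38 annotation the ETS genes lie on 2 chromosomes, with Fli1 at chr9:32422204-32542861 (minus strand), its neighbour Ets1 at chr9:32636221-32757820 (plus strand) and Erg at chr16:95359169-95586593 (minus strand). The SoxF genes are Sox7 at chr14:63943673-63950732 (plus strand), Sox17 at chr1:4490931-4497354 (minus strand) and Sox18 at chr2:181669836-181671640 (minus strand). The other genes are Tal1 at chr4:115056426-115071755 (plus strand), Gata2 at chr6:88193891-88207032 (plus strand), Klf2 at chr8:72319033-72321656 (plus strand) and Klf4 at chr4:55527143-55532466 (minus strand). Exons of Sox17 overlap those of Gm37587 on the opposite strand, and reads of the 2 genes cannot be told apart without strand.

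The upstream sequences of the factors are shown because the factors are thought to act on each other's promoters. Of the 10 genes, 5 have an entry in the RefSeq table of promoters (GRCm38.p6), with 9 start sites in all. The 250 bases before the start are printed 5′ to 3′ for the start nearest the gene's 5′ end, and for the most downstream start of Erg. Capitals mark matches on either strand. For ETS factors the letters searched were CCGGAA and, as a second form, AGGAAG. For GATA factors they were AGATAA, for Sox factors ACAAT and for Klf factors CACCC. For the E-box, the site of Tal1 complexes, they were CAGCTG and, as a second form, CATCTG.
Erg, chr16:95586594-95586843, minus strand: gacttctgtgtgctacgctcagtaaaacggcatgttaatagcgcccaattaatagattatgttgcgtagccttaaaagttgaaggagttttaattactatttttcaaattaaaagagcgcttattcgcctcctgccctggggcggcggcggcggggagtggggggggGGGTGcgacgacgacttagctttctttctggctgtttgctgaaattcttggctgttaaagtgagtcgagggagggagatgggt
Erg, chr16:95459349-95459598, minus strand, most downstream start: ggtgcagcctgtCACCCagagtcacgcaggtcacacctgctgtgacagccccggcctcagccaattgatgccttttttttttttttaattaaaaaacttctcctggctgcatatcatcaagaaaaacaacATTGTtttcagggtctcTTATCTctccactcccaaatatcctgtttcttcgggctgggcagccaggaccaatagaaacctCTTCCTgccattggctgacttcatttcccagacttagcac
Tal1, chr4:115056176-115056425, plus strand: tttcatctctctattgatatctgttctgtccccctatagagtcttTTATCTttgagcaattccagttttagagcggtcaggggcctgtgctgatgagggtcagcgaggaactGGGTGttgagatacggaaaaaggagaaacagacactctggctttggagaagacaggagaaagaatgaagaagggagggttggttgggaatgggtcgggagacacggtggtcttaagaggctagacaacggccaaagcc
Gata2, chr6:88193641-88193890, plus strand: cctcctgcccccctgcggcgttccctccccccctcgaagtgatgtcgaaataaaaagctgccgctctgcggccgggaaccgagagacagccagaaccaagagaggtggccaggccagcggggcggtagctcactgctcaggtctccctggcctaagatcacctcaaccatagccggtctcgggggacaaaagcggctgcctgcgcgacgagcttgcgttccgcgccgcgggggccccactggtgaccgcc
Klf2, chr8:72318812-72319061, plus strand: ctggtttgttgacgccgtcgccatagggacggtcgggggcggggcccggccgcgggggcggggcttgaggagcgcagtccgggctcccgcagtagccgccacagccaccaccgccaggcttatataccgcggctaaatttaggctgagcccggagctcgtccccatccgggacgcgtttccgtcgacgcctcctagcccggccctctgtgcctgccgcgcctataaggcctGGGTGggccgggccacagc
Klf4, chr4:55532476-55532725, minus strand: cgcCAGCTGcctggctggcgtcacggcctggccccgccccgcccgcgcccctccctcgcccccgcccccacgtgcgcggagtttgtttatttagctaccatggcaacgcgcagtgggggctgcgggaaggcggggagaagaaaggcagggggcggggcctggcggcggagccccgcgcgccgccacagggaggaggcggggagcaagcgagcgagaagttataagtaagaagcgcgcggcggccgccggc
Across all 32851 promoters of the table, the 250 bases before the start held CACCC in 52.0%, AGGAAG in 29.5%, ACAAT in 27.7%, CATCTG in 14.4%, CCGGAA in 12%, CAGCTG in 13% and AGATAA in 9.99%. CACCC, the letters held by most promoters, were present once before the RefSeq start of Klf2, beginning 19 bases before it. The window of Klf2 ends 28 bases past the annotated 5′ end of the gene, so this match lies within the annotated gene. The same letters were present once upstream of the 5′ start of Tal1 and of Erg. The window before the most downstream start of Erg held the Klf letters, the second ETS letters, the GATA letters and the Sox letters once each. That of Tal1 held AGATAA once, and that of Klf4 held CAGCTG once. The printed window of Gata2 held none of the letters. A match is a description of letters and not of a bound site.

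Total counts were 6377013 to 33880743 per library. The 3 populations were distinct for their defining markers. Summed RPKM (reads scaled to transcript length and library size) of 12 endothelial markers was 3063 to 4371 in ECs, at most 56.7 in MSCs and at most 35.6 in MNCs. Summed RPKM of 14 leukocyte markers was 15.96 to 661 in ECs, with the highest value in ITD EC replicate 2, and 7649 to 11670 in MNCs. In MSCs it was 1.86 to 353 with a median of 9.2, and the highest values were those of ITD replicate 5 (353) and WT replicate 5 (154). Summed RPKM of 12 mesenchymal markers was at most 96.8 in ECs and at least 27523 in MSCs. In samples of sorted bulk cells, fewer cells of a type and less RNA per cell cannot be told apart.

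In ECs the most abundant of the 10 factors was Fli1, and Tal1 was the least abundant. Mean RPKM over the 10 EC libraries was 328 ± 48.2 (SD) for Fli1, 211 ± 87.5 for Klf4, 159 ± 66.0 for Klf2, 102 ± 33.0 for Ets1, 71.3 ± 30.3 for Sox18, 54.8 ± 15.1 for Gata2, 51.2 ± 31.1 for Sox7, 9.82 ± 6.24 for Sox17, 7.62 ± 6.85 for Erg and 3.04 ± 2.56 for Tal1. The ranges of each factor and the next one down overlapped in every case. The separation was clearest between Fli1 and Klf4 and between Sox7 and Sox17, where the higher factor led in 9 of 10 libraries. Between Sox17 and Erg it led in 6 of 10. Fli1 stood at place 299 by mean RPKM among the 12477 genes whose mean reached 1 in ECs, and its coefficient of variation of 0.147 was below that of all but 0.906% of those genes. The median coefficient was 0.721, and Erg, at 0.899, and Tal1, at 0.842, varied more than that.

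**Figure D1:**
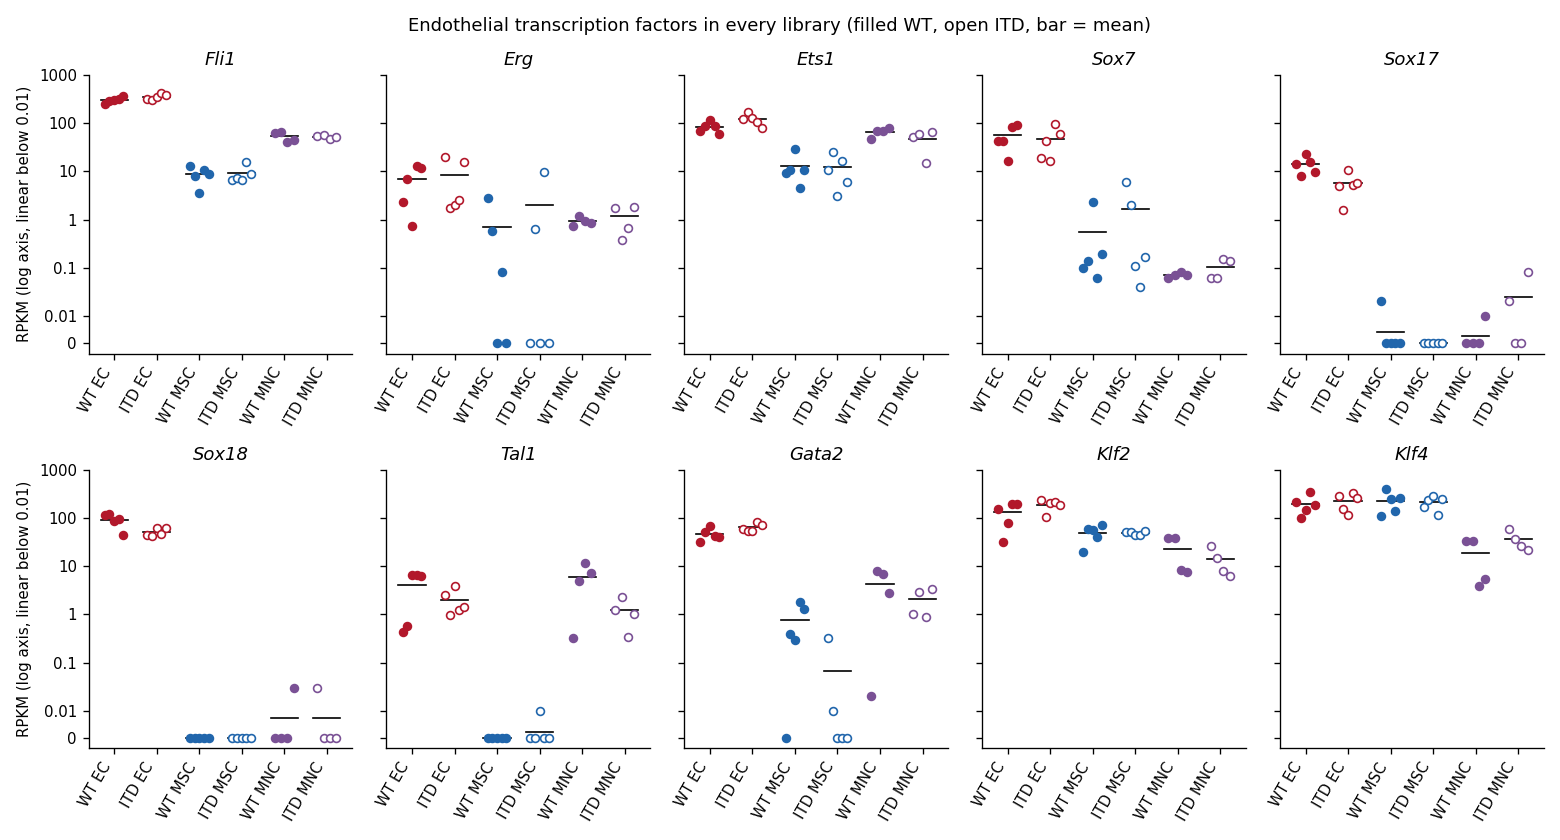
RPKM of each factor in every library on a log axis that is linear below 0.01, for the 6 groups of population and genotype; filled points are WT, open points are ITD and bars are means. Sox17 and Sox18 lie at or near 0 in MSCs and MNCs, Fli1 and Gata2 step down in both, and Klf4 has a mean of 219 in MSCs and of 211 in ECs.

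Populations were compared by edgeR's quasi-likelihood test over all 28 libraries, with genotypes weighted equally. A gene was called at a Benjamini-Hochberg adjusted p below 0.1 over all genes tested with mean RPKM values whose log2 ratio was 1 or more in size. Against MSCs, 8 of the 10 factors were higher in ECs and none was lower, where 16.3% of 16897 genes were called higher and 16.6% lower. For 7 of the 10, every EC library lay above every MSC library, against 4.75% of genes. Against MNCs, 8 of 10 were higher and none lower (23.1% and 22% of genes), and 6 lay wholly above (9.12%). For 5 factors, Fli1, Sox7, Sox17, Sox18 and Gata2, every EC library lay above every library of both other populations, against 3.08% of genes. Sox17 and Sox18 are included in each of these counts. They passed the filter on low counts through ECs alone, so their place in the counts is not separate evidence. The median log2 fold change of the 10 was 5.21 against MSCs and 2.98 against MNCs, and that of all genes was -0.014 and 0.

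Among the ETS factors, Fli1 separated the 3 populations. RPKM of Fli1 was 248 to 411 in ECs, 40.8 to 66.8 in MNCs and 3.48 to 15.7 in MSCs, and no 2 of these ranges overlap. Its log2 fold change was 4.96 (standard error 0.22, adjusted p = 5.5e-15, edgeR) against MSCs and 2.51 (standard error 0.21, adjusted p = 6.2e-10) against MNCs. MSCs were lower than MNCs by a log2 fold change of -2.45 (adjusted p = 2.9e-10). Fli1 is also a factor of megakaryocytes and lymphocytes.

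Ets1, which T cells and natural killer cells also use, was shared by ECs and MNCs. RPKM was 57.9 to 169 in ECs, 14.6 to 78.6 in MNCs and 3.12 to 28.7 in MSCs. ECs lay above all MSC libraries (log2 fold change 2.72, standard error 0.37, adjusted p = 2.5e-06, edgeR) but overlapped MNCs, and their difference from MNCs was not called (0.66, standard error 0.37, adjusted p = 0.153). Over all alternatives the same difference was 0.071 to 1.40, and the highest, that among ITD libraries alone, was called. MNCs exceeded MSCs, where the log2 fold change of MSCs was -2.06 (standard error 0.37, adjusted p = 6.1e-05). The lowest MNC value was that of ITD MNC replicate 3.

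Erg was low and uneven. In ECs RPKM was 2.33, 6.85, 0.75, 12.7 and 11.9 in WT and 19.6, 1.75, 1.98, 2.56 and 15.9 in ITD mice. In MSCs 5 of 10 libraries had no count, and ITD MSC replicate 4 held 518 counts (RPKM 9.54). In MNCs RPKM was 0.37 to 1.84. The difference of ECs from MSCs was not called (log2 fold change 2.33, standard error 1.15, adjusted p = 0.125, edgeR), and without ITD MSC replicate 4 it was 4.22 and was called, as it was without WT MSC replicate 1 (3.35). That from MNCs was called (2.71, standard error 1.27, adjusted p = 0.0853), but not at an adjusted p below 0.05 nor in either genotype alone, and in 12 of 18 fits that left out an EC or MNC library it was lost.

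Fli1 and Ets1 dominated the ETS family in ECs. Of the summed RPKM of 25 ETS family genes, the 3 factors made up 66.5% ± 5.14 (SD, n = 10) in ECs, of which Fli1 gave 49.9% ± 5.05 and Ets1 15.5% ± 4.55, with first and second rank. In MNCs they made up 46.9% ± 8.34 (n = 8) and in MSCs 18.3% ± 6.23 (n = 10). Of the other 22 family genes, 19 were tested, of which 3 were higher and 3 lower in ECs than in MSCs, and 5 were higher and 5 lower than in MNCs. Elk3, a repressor of the ternary complex group averaging 54.5 ± 6.35 RPKM (SD, n = 10) in ECs, 6.60 in MSCs and 3.51 in MNCs, Ets2 at 52.7 ± 16.6, 6.16 and 2.09, and Elk4 at 42.5 ± 24.8, 18.8 and 15.7 were the most abundant of these in ECs. Elf1, at 25.7 ± 14.0, was not called against either population, with 18.4 in MSCs and 38.6 in MNCs.

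Among the SoxF factors, Sox17 and Sox18 were at or near 0 outside ECs. Sox18 had an RPKM of 117, 118, 87.7, 94.3 and 44.0 in WT ECs and of 43.9, 41.5, 60.7, 46.3 and 60.2 in ITD ECs. It had no count in any of 10 MSC libraries, and 2 counts in all in 8 MNC libraries. Taking 3 counts over all MSC libraries as the floor that a count of 0 allows, expression relative to library size was at least 10155-fold higher in ECs than in MSCs. Against MNCs the ratio was 8604, with an exact 95% Poisson interval of 2382 to 71048. Intervals and floors here cover counting error alone, since copies made by amplification cannot be recognised in these counts. Both differences were called (adjusted p = 8.1e-12 and 4.1e-11, edgeR). Sox18 passed the filter on low counts through ECs alone, so these calls are not separate evidence beside the counts.

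Sox17, which marks arterial ECs, had an RPKM of 14.2, 8.07, 22.7, 15.4 and 9.67 in WT ECs and of 5.03, 1.60, 10.7, 5.12 and 5.61 in ITD ECs. It had 1 count in all in MSCs and 6 counts in 3 MNC libraries. The ratio of ECs to MSCs, relative to library size, was 8294 (95% Poisson interval 1489 to 327576), and that to MNCs was 781 (359 to 2128). Sox17 and Sox18 passed the filter on low counts through ECs alone. The test of MSCs against MNCs called both lower in MSCs (adjusted p = 0.0702 and 0.0967, edgeR). It rests on these few counts and cannot rank the 2 populations, and no fold is given. The call was lost in 7 of 37 alternatives for Sox17 and in 19 of 37 for Sox18.

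Sox7 was found at low level outside ECs. RPKM in ECs was 42.0, 41.5, 16.6, 84.0 and 93.1 in WT and 19.0, 42.6, 16.7, 97.5 and 59.3 in ITD mice. MNCs had 4 to 10 counts per library (RPKM 0.06 to 0.15). In MSCs RPKM was 0.04 to 5.96, with 574 counts in ITD MSC replicate 1, 226 in WT MSC replicate 3 and 174 in ITD MSC replicate 2, and at most 21 in the other 7. ECs exceeded MSCs by 5.46 on the log2 scale (standard error 0.83, edgeR adjusted p = 1.3e-05) and MNCs by 9.05 (standard error 1.10, adjusted p = 2.6e-07). MSCs exceeded MNCs by 3.59 (standard error 0.88, adjusted p = 0.00152). In the 2 MSC libraries with the most Sox7, summed endothelial markers were 5.46 (ITD replicate 1) and 26.0 (WT replicate 3). The third library, ITD replicate 2, had the highest endothelial marker sum of the MSC libraries, 56.7. The part of these transcripts in the result was not tested.

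SoxF genes together made up 90.6% ± 5.18 (SD, n = 10) of the summed RPKM of 19 Sox family genes in ECs, against 1.42% ± 3.02 in MSCs and 2.09% ± 1.98 (n = 8) in MNCs. Within the SoxF sum Sox18 was the largest part on average, with 57.1% ± 17.6 (SD, n = 5) in WT and 52.2% ± 15.1 in ITD ECs. Sox7 gave 33.8% ± 19.8 and 41.9% ± 18.5, and Sox17 9.10% ± 5.08 and 5.87% ± 4.06. Of the other 16 Sox genes, 8 were tested, of which 1 was higher (Sox13) and 3 lower (Sox5, Sox6 and Sox9) in ECs than in MSCs. Sox13, the most abundant of these in ECs, had a mean RPKM of 8.21 ± 5.87 in ECs, 0.615 in MSCs and 2.08 in MNCs. Sox11, Sox4 and Sox8 followed in ECs at 1.79 ± 3.60, 1.36 ± 1.09 and 0.47 ± 1.40.

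**Figure D2:**
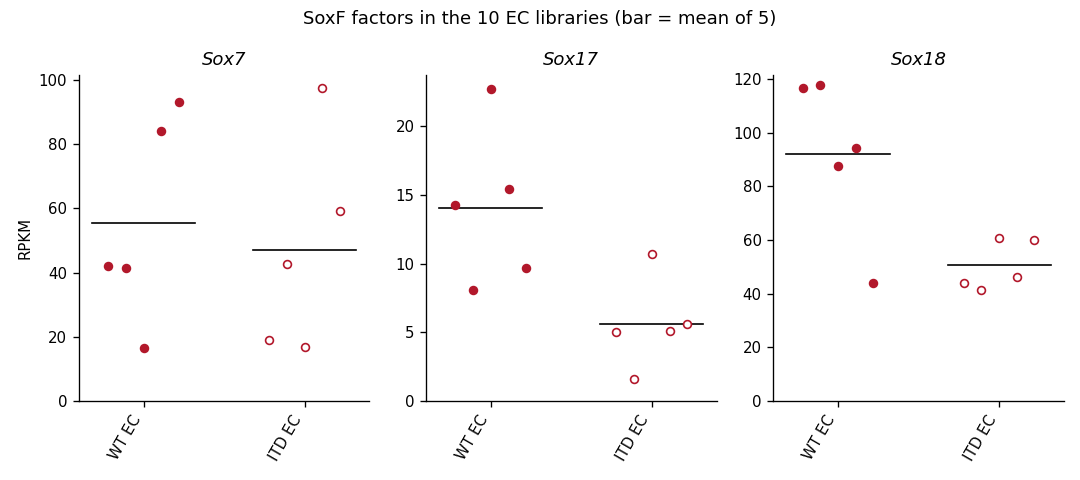
RPKM of the 3 SoxF factors in the 5 WT (filled) and 5 ITD (open) EC libraries, on linear axes from 0 with bars for means. The genotypes overlap for all 3 factors, and 4 of 5 ITD values of Sox17 lie below the lowest WT value of 8.07.

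Tal1, a basic helix-loop-helix factor of blood and vessel, was measured in ECs and MNCs with overlapping values, and was near 0 in MSCs. RPKM in ECs was 0.43, 0.57, 6.56, 6.65 and 6.09 in WT and 2.56, 0.96, 3.92, 1.23 and 1.41 in ITD mice, and in MNCs it was 0.33, 4.86, 11.8 and 7.15 in WT and 1.23, 2.33, 0.34 and 1.01 in ITD mice. MSCs had 1 count in all. The log2 fold change of ECs over MNCs was -0.11 (standard error 0.64, adjusted p = 0.927, edgeR), and ECs exceeded MSCs by a ratio, relative to library size, of 3436 (95% Poisson interval 617 to 135695; adjusted p = 3.0e-08).

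Erythroid transcripts also differed between these samples. Of 6 erythroid markers tested, 5 were higher in ECs than in MSCs and 5 were lower in ECs than in MNCs. Their summed RPKM was 4.78 to 2467 in ECs, 0.87 to 24.0 in MSCs and 51.2 to 80642 in MNCs. In ECs, Tal1 was 0.43 in the library with most erythroid transcripts (WT replicate 1, 2467) and 1.23 in the library with least (ITD replicate 4, 4.78). In MNCs, the library with most erythroid transcripts, WT replicate 3, also had the most Tal1 (11.8), and that with least, WT replicate 1 (51.2), had the least (0.33). ECs were sorted as Ter119- cells, and erythroid transcripts were still measured in every EC library. The part of these transcripts in the values of Tal1 was not tested.

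Gata2, a zinc finger factor of ECs, stem cells and mast cells, was higher in ECs than in both other populations. RPKM was 30.9, 50.4, 66.7, 42.6 and 41.0 in WT and 59.5, 52.5, 52.3, 80.9 and 71.2 in ITD ECs. In MNCs it was 0.02, 7.79, 6.76 and 2.77 in WT and 1.03, 2.91, 0.88 and 3.40 in ITD mice, and in MSCs it was at most 1.84. ECs exceeded MSCs by 7.58 on the log2 scale (standard error 0.96, edgeR adjusted p = 8.2e-07) and MNCs by 4.06 (standard error 0.88, adjusted p = 0.000528). MSCs were lower than MNCs by -3.52 (standard error 0.82, adjusted p = 0.001), a difference that was lost in WT libraries alone (-2.50). Summed RPKM of 8 mast cell and basophil markers, cells that also use Gata2, was 43.0 to 2799 in MNCs and at most 15.1 in ECs, where Cpa3, Prss34 and Fcer1a had an RPKM of 0 in all libraries.

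Of 22 partners and relatives of Tal1 and Gata2, 21 were tested, and 8 were higher and 2 lower in ECs than in MSCs, and 7 were higher and 5 lower than in MNCs. Tcf4, an E protein that pairs with Tal1, averaged 84.9 ± 10.4 RPKM (SD, n = 10) in ECs, 33.0 in MSCs and 14.4 in MNCs. It was called higher in ECs against both. Ldb2, a bridging cofactor, had 51.4 ± 18.5, 8.45 and 0.0025. Lmo2, which joins Tal1 to Gata factors, was present in all 3 populations, with 25.4 ± 18.3 in ECs, 12.6 ± 7.63 in MSCs and 35.3 ± 9.35 in MNCs. In ECs Lmo2 was called against neither. Cbfb, the partner of Runx factors, was likewise not called (23.7, 28.05 and 25.96). Gata1, the erythroid relative, had 0.413 ± 1.29 in ECs and 26.3 ± 33.1 in MNCs.

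**Figure D3:**
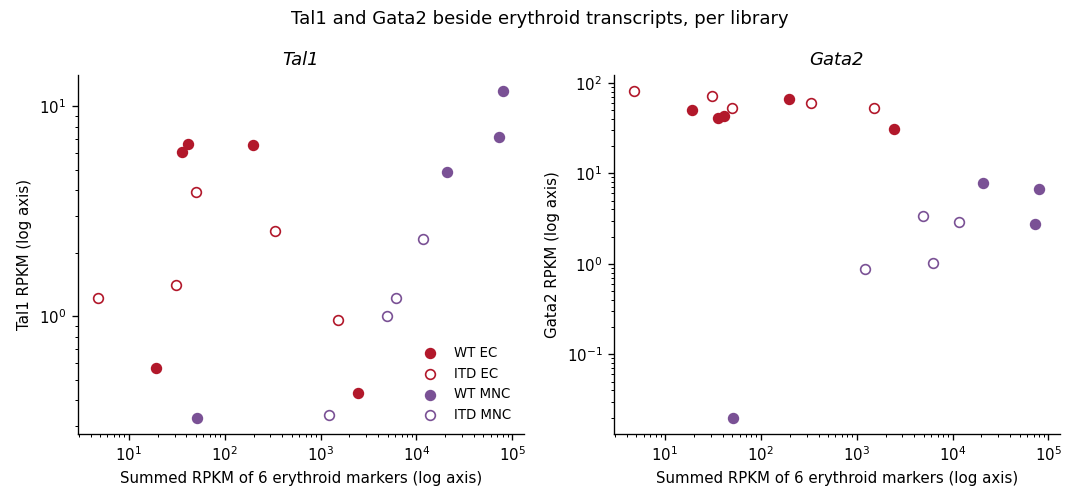
RPKM of Tal1 and Gata2 against the summed RPKM of 6 erythroid markers in the EC (red) and MNC (purple) libraries, on log axes, with filled points for WT and open points for ITD. In ECs the highest erythroid sum of 2467 goes with a Tal1 of 0.43, and in MNCs the highest sum of 80642 goes with the highest Tal1 of 11.8.

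Klf2 fell in steps from ECs to MSCs to MNCs. RPKM was 153, 31.8, 77.6, 196 and 194 in WT and 230.2, 102, 203, 212 and 188 in ITD ECs, 19.8 to 70.5 in MSCs and 6.31 to 37.9 in MNCs. ECs exceeded MSCs by 1.44 on the log2 scale (standard error 0.33, edgeR adjusted p = 0.00156) and MNCs by 3.04 (standard error 0.39, adjusted p = 5.3e-07), and MSCs exceeded MNCs by 1.60 (standard error 0.36, adjusted p = 0.000737). Among WT libraries alone the differences of ECs from MSCs and of MSCs from MNCs were not called (1.21 and 1.23). A single EC library, WT replicate 2, brought the range of ECs into those of MSCs and MNCs.

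Klf4 was not called between ECs and MSCs and was higher in both than in MNCs. RPKM was 208, 97.8, 147, 341 and 187 in WT and 279, 149.9, 113, 327 and 264 in ITD ECs, and 108 to 402 in MSCs, and these ranges overlapped. It was 3.94 to 58.9 in MNCs. The log2 fold change of ECs over MSCs was -0.29 (standard error 0.33, adjusted p = 0.545, edgeR), and those of ECs and MSCs over MNCs were 2.92 (standard error 0.39, adjusted p = 9.4e-07) and 3.21 (standard error 0.39, adjusted p = 2.5e-07). Klf4 was the factor with every MSC library above every MNC library (9.31% of genes). Fli1 and Tal1 were those with every MSC library below. The share of all genes wholly below was not computed, so these have none to be set against. Between MSCs and MNCs, 3 of the 10 factors were higher in MSCs (Sox7, Klf2 and Klf4), where 22.2% of genes were higher. Fli1, Ets1, Tal1 and Gata2 were called lower, where 22% of genes were lower. The count of 6 lower also includes Sox17 and Sox18, near 0 in both populations, which passed the filter on low counts through ECs alone.

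Klf2 and Klf4 made up 48.2% ± 9.78 (SD, n = 10) of the summed RPKM of 17 Klf family genes in ECs, 47.3% ± 6.92 in MSCs and 17.7% ± 9.59 (n = 8) in MNCs. Of the other 15 family genes, 14 were tested. None was higher and 2 were lower in ECs than in MSCs, and 5 were higher and 1 lower than in MNCs. The most abundant were Klf13 (mean RPKM 112 ± 28.7 in ECs, 66.3 in MSCs, 84.8 in MNCs), Klf6 (100.1 ± 35.8, 77.3 and 39.1), Klf10 (77.6 ± 33.7, 56.9 and 40.8) and Klf9 (28.5 ± 15.9, 35.6 and 0.708).

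Immediate-early genes, which respond to cell handling, were measured beside the Klf factors. Of 16 such genes, 15 were called higher in ECs than in MNCs and 15 higher in MSCs than in MNCs, and between ECs and MSCs 1 was called, Nr4a1, lower in ECs. Their score, the mean log2(RPKM + 1), was 5.46 to 7.21 in ECs, 5.46 to 7.55 in MSCs and 1.79 to 4.18 in MNCs. Per the paper's methods, bone lining cells were released from bone by digestion with collagenase. How MNCs were prepared for sequencing is not stated there. The part of preparation in the differences between populations, also those of Klf2 and Klf4, was not tested. Over the 10 EC libraries the score correlated with Klf4 (Pearson r = 0.855, permutation p = 0.0025, Spearman rho = 0.867, permutation p = 0.00217) and with Klf2 (r = 0.719, permutation p = 0.0136, rho = 0.636, permutation p = 0.0552). Adjusted over the 6 relations computed, the p of r was 0.00937 for Klf4 and 0.0204 for Klf2. Without the 2 libraries farthest from the median score, r was 0.903 for Klf4 and 0.465 for Klf2, so that the relation of Klf2 was weaker without them. No p was computed for the remaining libraries, whose scores span a narrower range.

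In MSCs r was 0.680 for Klf2 (permutation p = 0.0287, adjusted p over the 6 relations 0.0301, rho = 0.697, permutation p = 0.0307) and 0.759 for Klf4 (permutation p = 0.0104, adjusted p 0.0204, rho = 0.479, permutation p = 0.166). Without the 2 farthest libraries r was 0.556 for Klf2 and 0.392 for Klf4, both weaker than with them, and again no p was computed. The scores have a gap between 6.21 and 6.78 in ECs and between 6.24 and 6.92 in MSCs. Among the 6 EC libraries above the gap r was 0.369 for Klf2 and 0.591 for Klf4 (permutation p = 0.504 and 0.225), and among the 7 MSC libraries above it r was -0.0049 and -0.47 (permutation p = 0.988 and 0.252). In MNCs the scores fell into 2 clusters of 4 libraries, at 3.93 to 4.18 and at 1.79 to 2.06, and no pooled correlation is given there, although the 6 relations of the adjustment include those of Klf2 and Klf4 in MNCs. In the upper cluster Klf2 was 14.8 to 37.9 RPKM and in the lower 6.31 to 8.30.

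The clusters followed replicate numbers. MNC libraries 1 and 2 of both genotypes formed the upper cluster and 3 and 4 the lower, and EC libraries 2 and 3 of both genotypes were the 4 below the gap. In MSCs the libraries below it were WT replicates 1 and 4 and ITD replicate 4. Whether a number marks a shared day or batch is not given in the sources used here.

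**Figure D4:**
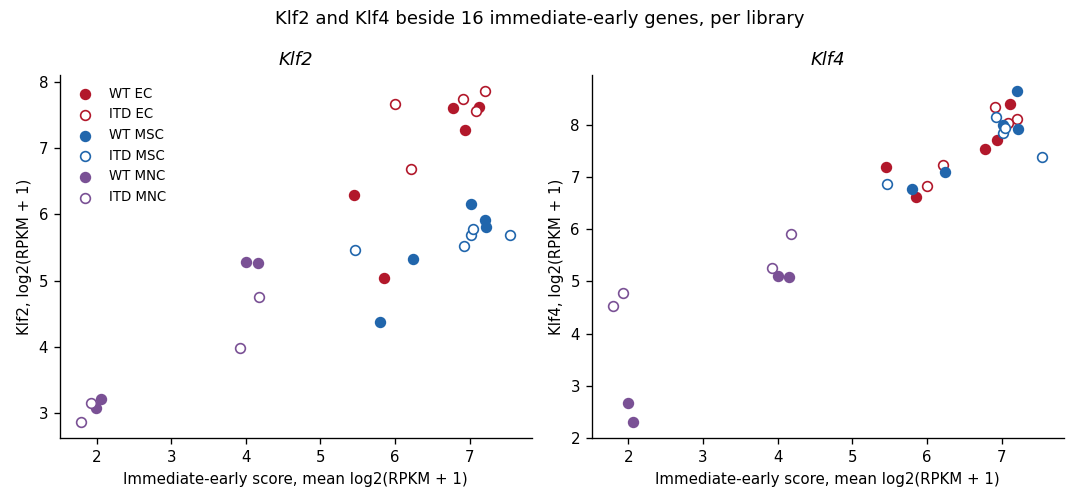
log2(RPKM + 1) of Klf2 and Klf4 against the immediate-early score in each library, with ECs in red, MSCs in blue and MNCs in purple, filled for WT and open for ITD. In MNCs the scores form 2 clusters, at 1.79 to 2.06 and at 3.93 to 4.18, and Klf4 in ECs and MSCs lies in the same range of score and level.

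Genes known to lie downstream of ETS and SoxF factors were mostly higher in ECs. Of 25 such genes, 24 were tested, and 23 were higher in ECs than in MSCs and 24 higher than in MNCs (16.3% and 23.1% of all genes). The list holds all of the 12 endothelial markers above except Ecscr, and Pecam1 encodes CD31, on which ECs were sorted. These counts therefore describe the sorted cells and cannot show whether the factors act on the genes. Emcn, the sialomucin endomucin, averaged 1154 ± 203 RPKM (SD, n = 10) in ECs, 0.006 in MSCs and 0.369 in MNCs. Egfl7, a vascular matrix protein, had 651 ± 99.9, 0.008 and 3.45, and Esam, an adhesion molecule of tight junctions, had 342 ± 131, 1.37 and 0.249. Icam2, which leukocytes also carry, had 383 ± 99.5 in ECs and 28.3 ± 4.07 in MNCs and an RPKM of 0 in all MSC libraries.

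Of 15 flow-responsive genes downstream of Klf2 and Klf4, 14 were tested, and 6 were higher and 1 lower in ECs than in MSCs and 11 higher than in MNCs. Cav1, the coat protein of caveolae, had 2061 ± 268 in ECs, 252 in MSCs and 0.00625 in MNCs. Tfpi, an inhibitor of coagulation, had 158 ± 120, 4.73 and 3.92. Thbd, the anticoagulant thrombomodulin, had 161 ± 48.5, 83.5 and 4.97 and Timp3 110 ± 37.2, 133 and 0.0375, and the difference between ECs and MSCs was not called for these. Of 26 other endothelial transcription regulators, 9 were higher and 4 lower in ECs than in MSCs and 19 higher and 1 lower than in MNCs. Id3 (2152 ± 532, 1330 in MSCs, 14.9 in MNCs), Id1 (402 ± 134, 69.8 and 15.2), Id2 (395 ± 150, 694 and 213), which are inhibitors of helix-loop-helix factors, and Epas1 (152 ± 30.3, 5.80 and 0.362), a hypoxia factor, were the most abundant.

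The genes whose log2(RPKM + 1) was most like that of a factor over the 28 libraries, among 13727 genes whose mean RPKM reached 1, were Ptprb, Mmrn2 and Tcf15 for Sox18 (r = 0.995, 0.995 and 0.995). Sox17 was most like Nos3, Sox18 and Ccm2l (0.988, 0.966 and 0.963), Sox7 like Rapgef5, Esam and Gpr116 (0.960, 0.957 and 0.952), Gata2 like Egfl7, Ctla2b and Eltd1 (0.963, 0.961 and 0.960) and Fli1 like Gimap6, Icam2 and Myh9 (0.982, 0.980 and 0.978). Ets1 was most like Rsad2, Gimap4 and Gimap6 (0.920, 0.907 and 0.901), Erg like Esm1, Sugt1 and Rhpn2 (0.802, 0.772 and 0.762), and Tal1 like Gm12839, Nxpe2 and Cd200r3 (0.808, 0.797 and 0.796). Klf4 was most like Fosb, Egr1 and Tpt1 (0.943, 0.942 and 0.936), and Klf2 like Btg1, Hexim1 and Zc3h12a (0.916, 0.904 and 0.898). These values describe libraries of 3 populations, so that a difference between populations alone gives a high r.

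Between genotypes, no factor was called in any population. In ECs 0 of 10 were called by edgeR's quasi-likelihood test, by DESeq2 and by edgeR's exact test, where 0.0081% of 12351 genes were called by the first. At an unadjusted p below 0.05 there were 3 of 10, against 4.99% of genes, and no factor separated the genotypes completely (1.14% of genes). In MSCs 0 of the 6 factors that passed the filter on low counts were called (0.0295% of 13574 genes) and none had an unadjusted p below 0.05 (4.24%). In MNCs 0 of 7 were called (0.0144% of 13926 genes) and 1 had an unadjusted p below 0.05 (10.4%). No factor separated the genotypes in MSCs (0.914%) or MNCs (6.71%). DESeq2 called 0 in MSCs and 1 in MNCs, and edgeR's exact test called 0 in both. The share of all genes called by DESeq2 and by edgeR's exact test was not computed, so their counts have none to be set against.

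The 3 factors in ECs were Sox18, Sox17 and Ets1. Mean RPKM of Sox18 was 92.1 ± 30.0 (SD, n = 5) in WT and 50.5 ± 9.21 in ITD ECs, with a log2 fold change of -0.85 (standard error 0.28, unadjusted p = 0.0128, adjusted p = 0.927, edgeR) and an exact permutation p of 0.0317 (two-sided, on RPKM). The ITD values of 41.5 to 60.7 overlap the WT values through WT replicate 5 at 44.0. Without either ITD replicate 1 or 2, the exact permutation p was 0.0556. Sox17 was 14.0 ± 5.73 in WT and 5.62 ± 3.27 in ITD ECs, with a log2 fold change of -1.29 (standard error 0.53, unadjusted p = 0.0347, adjusted p = 0.964) and an exact permutation p of 0.0238. Of the ITD values, 4 of 5 lay below the lowest WT value. Sox7, the other SoxF factor, was 55.4 ± 32.1 in WT and 47.0 ± 33.2 in ITD ECs (log2 fold change -0.20, standard error 0.56, exact permutation p = 0.730).

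Ets1 was 83.3 ± 22.1 in WT and 121 ± 32.7 in ITD ECs (log2 fold change 0.61, standard error 0.23, unadjusted p = 0.025, adjusted p = 0.927), with an exact permutation p of 0.0714. Its highest value, 169, was that of ITD replicate 2, the EC library with most leukocyte transcripts, and without this library the log2 fold change was 0.45 (unadjusted p = 0.072). Without it, those of Sox17 and Sox18 were -1.05 and -0.80 (unadjusted p = 0.0532 and 0.0298). Fli1 was 304 ± 42.2 in WT and 352 ± 44.4 in ITD ECs (exact permutation p = 0.119), and Gata2 46.3 ± 13.4 and 63.3 ± 12.5 (exact permutation p = 0.0714). Klf2 was 130.4 ± 73.0 and 187 ± 49.9 (exact permutation p = 0.183), and Klf4 was 196 ± 91.4 and 227 ± 91.1 (exact permutation p = 0.595). Erg was 6.90 ± 5.40 and 8.35 ± 8.67 (exact permutation p = 0.746) and Tal1 4.06 ± 3.26 and 2.02 ± 1.23 (exact permutation p = 0.222). The smallest p the exact test can give is 0.00794 with 5 against 5 libraries and 0.0286 with 4 against 4. Over the 29 tests with any count, 2 had an exact permutation p under 0.05, Sox17 and Sox18 in ECs, and these p values are not adjusted. The share of all genes with such a p was not computed, so the count of 2 is not read as a result about the factors.

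Among the targets of these factors in ECs, none of the 24 tested genes of the ETS and SoxF list was called between genotypes by edgeR. Of the 24, 4 had an unadjusted p below 0.05, against 4.99% of all genes tested in ECs. Aplnr, the apelin receptor of venous and growing vessels (log2 fold change -1.26, unadjusted p = 0.00562), Tek, the receptor of angiopoietins (-0.49, 0.0103), and Cdh5, which encodes VE-cadherin (-0.34, 0.0117), had fold changes below 0, and Kdr, the main receptor of VEGF (0.45, 0.0229), had one above 0. Adjusted p was 0.857 or more for each. Of the 13 flow-responsive genes tested, 1 had an unadjusted p below 0.05, against the same 4.99%, and this was Palmd (0.71, 0.0207). Of the 9 other Klf factors tested in ECs, 2 had an unadjusted p below 0.05, against the same 4.99%. Klf6 and Klf11 had log2 fold changes of 0.81 and 1.98 (unadjusted p = 0.00858 and 0.0268), and neither was called.

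In MNCs, Tal1 averaged an RPKM of 6.04 ± 4.78 (SD, n = 4) in WT and 1.23 ± 0.827 in ITD mice (log2 fold change -2.60, standard error 0.94, unadjusted p = 0.0209, adjusted p = 0.419, edgeR), with an exact permutation p of 0.143. WT replicate 1, at 0.33, lay below all ITD values, and without it the exact permutation p was 0.0286. DESeq2 called Tal1 (log2 fold change -2.63). The summed RPKM of erythroid markers was 51.2, 20617, 80642 and 72794 in WT and 6194, 11751, 1229 and 4911 in ITD MNCs. Of 17 partners and relatives of Tal1 and Gata2 tested in MNCs, 3 had an unadjusted p below 0.05, against 10.4% of genes. Gfi1b, an erythroid repressor (log2 fold change -3.47, unadjusted p = 0.0269, edgeR), and Lmo2 (-0.83, 0.00603) had fold changes below 0 in ITD MNCs. Cbfa2t3, a corepressor (0.86, 0.0441), had one above 0, and none of the 3 was called. The 7 mast cell and basophil markers tested had a median log2 fold change of -1.53 in ITD MNCs. Of these, 3 had an unadjusted p below 0.05 (Cpa3, Fcer1a and Hdc), against 10.4% of genes, and none was called. Kit had a fold change above 0 (0.75, unadjusted p = 0.119, edgeR). Gata2 was 4.34 ± 3.60 and 2.06 ± 1.29 in the 2 genotypes (log2 fold change -1.33, standard error 1.06, exact permutation p = 0.343). The part of these cells in the values of Tal1 and Gata2 was not tested.

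In MSCs Gata2 had counts in 4 of 5 WT libraries (RPKM 0.40, 0.29, 1.84 and 1.32) and 31 counts and 1 count in 2 of 5 ITD libraries (log2 fold change -3.37, standard error 1.64, unadjusted p = 0.0643, exact permutation p = 0.0873). Fli1, Ets1, Klf2 and Klf4 had log2 fold changes of 0.13, 0.06, 0.05 and -0.08 in MSCs, with standard errors of 0.42, 0.63, 0.29 and 0.34. In MNCs Klf4 had a mean RPKM of 18.9 ± 16.5 in WT and 36.1 ± 16.5 in ITD mice (0.88, standard error 0.63), and Klf2 22.8 ± 17.2 and 13.7 ± 8.89 (-0.80, standard error 0.60).

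**Figure D5:**
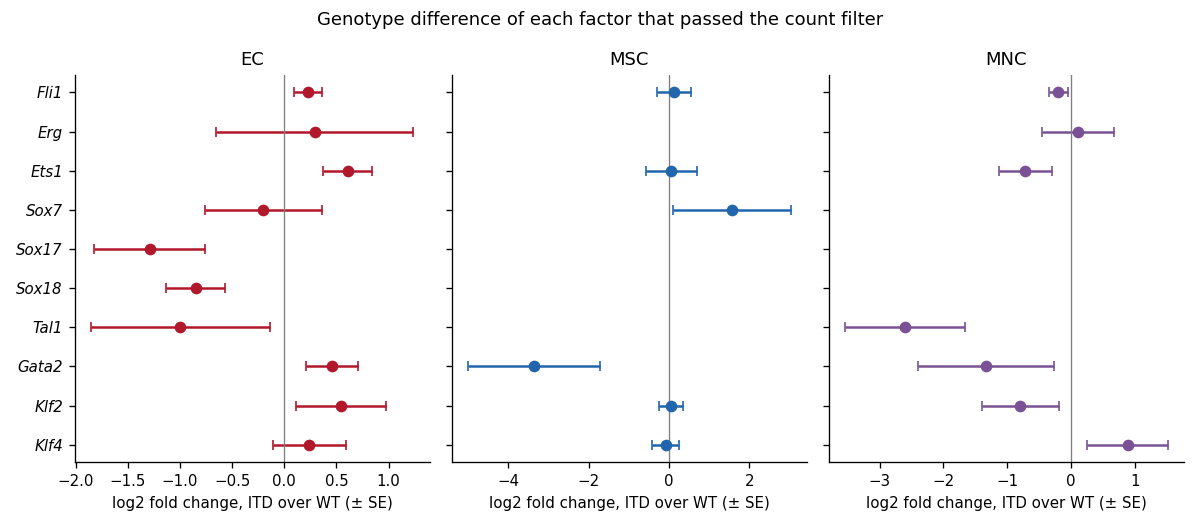
log2 fold change of ITD over WT with its standard error for each factor that passed the filter on low counts, in ECs (10 factors), MSCs (6) and MNCs (7). None was called, and the largest in size are Gata2 in MSCs at -3.37 and Tal1 in MNCs at -2.60.

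Whether the genotype difference itself differed between populations was tested as an interaction. No factor was called, where 0.379% of 16897 genes were called for ECs against MSCs, 0.0118% for ECs against MNCs and 0.00592% for MSCs against MNCs. The interaction of Gata2 between ECs and MSCs was 3.74 on the log2 scale (standard error 1.51, unadjusted p = 0.0207, adjusted p = 0.33, edgeR), and that of Tal1 between MSCs and MNCs was 3.87 (standard error 1.80, unadjusted p = 0.0479, adjusted p = 0.834), with 1 count of Tal1 in MSCs.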

How the data were processed

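RNA of 28 libraries was amplified with the SMARTer kit and sequenced. Per the paper's methods, the authors mapped reads with Bowtie to mouse transcripts (mm10), discarded reads without a unique place and used RSEM to obtain values per gene. The authors deposited read counts and RPKM per gene and library. Closely related genes can lose reads by this rule, and the counting is not stated to use strand. Counts were tested with edgeR 4.0.16 (R 4.3.3; TMM, filterByExpr, quasi-likelihood), RPKM with exact permutation tests (SciPy 1.17.1), and log2(RPKM + 1) was used for scores and correlations. Alternatives included the exact test of edgeR and DESeq2 1.42.0, and scripts were tested on simulated data. Correlation p values used 100000 resamples. Libraries of one population and genotype are described as biological replicates from separate mice. EC, MSC and MNC libraries can share a mouse, which the labels do not tie to libraries, so the tests between populations treat them as independent. The factors and gene lists were chosen with earlier results of these data known. The text names all 10 factors, the 3 genes most like each, and the 4 genes of each list most abundant in ECs. Other genes named were chosen after their values were seen.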

Additional observations from a re-analysis of the deposited data

Results flagged for a closer look

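In 11 of 56 groups of a factor in a population and genotype, 1 library stood apart from the others by Dixon's criterion. Chance gives this in about 5% of groups only where values are normally distributed. RPKM values near 0 are not, so the 11 are not read as an excess. In MSCs, Fli1 was 15.72 RPKM in ITD replicate 4, Erg was 2.81 in WT replicate 1 and 9.54 in ITD replicate 4, and Ets1 was 28.65 and Sox7 2.28 in WT replicate 3. Gata2 was 0.33 in ITD MSC replicate 1. The other 5 rest on a single count each, in groups where every other library was at 0 and any count meets the criterion. They are Sox17 in WT MSC replicate 1 (0.02) and WT MNC replicate 4 (0.01), Sox18 in WT MNC replicate 4 (0.03) and ITD MNC replicate 1 (0.03), and Tal1 in ITD MSC replicate 3 (0.01).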

How the results depend on the processing

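The numbers of factors called between populations were 7 to 9 for ECs against MSCs, 7 to 8 for ECs against MNCs and 5 to 9 for MSCs against MNCs over all alternatives, with 5 in Flt3+/+ libraries alone. Leaving out 1 library gave 8 to 9, 7 to 8 and 7 to 9. Between genotypes DESeq2 called 1 factor in MNCs. The number with an exact permutation p under 0.05 was 1 to 4 in ECs, 0 to 1 in MSCs and 0 to 1 in MNCs when 1 library was left out. No share of all genes was computed for DESeq2 or for the exact permutation test.

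Over all genes, deviations of same-numbered libraries correlated at -0.0716 to 0.0661 across genotypes and at -0.0545 to 0.0273 across populations, so the numbers were not taken as pairs. The immediate-early scores of MNCs and ECs did group by number, and whether numbers mark a shared mouse or day is not known. With the replicate number as a replicate block, 9, 7 and 7 factors were called between populations and 0 between genotypes in each population. The block turned the sign of Erg for MSCs against MNCs (-1.64), Klf4 between genotypes in MSCs (0.0106) and Erg between genotypes in MNCs (-0.14).

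Other values that changed sign were Erg for MSCs against MNCs in Flt3+/+ libraries alone (-0.42), Tal1 for ECs against MNCs in Flt3-ITD libraries alone (0.77), and the correlations of Klf2 and Klf4 with the immediate-early score in MSCs above the gap (-0.0049 and -0.47), an alternative chosen after seeing the data. Leaving out 1 library gave -1.51 to 0.55 for Erg in MSCs against MNCs, -0.31 to 0.20 for Tal1 in ECs against MNCs, and between genotypes -0.65 to 0.0933 for Sox7 and -0.30 to 0.61 for Erg in ECs, -0.22 to 0.32 for Fli1, -0.39 to 0.65 for Ets1, -0.14 to 0.20 for Klf2 and -0.26 to 0.21 for Klf4 in MSCs, and -0.25 to 0.40 for Erg in MNCs. The exact permutation p in ECs was then 0.54 to 0.984 for Erg and 0.349 to 0.992 for Sox7. The cause was not tested.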

Other observations

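Fli1 is also a megakaryocyte factor, and summed RPKM of 9 megakaryocyte and platelet markers was at most 53.5 in ECs, 7.0 in MSCs and 30.8 in MNCs. Pericyte and smooth muscle markers were present in the EC libraries. Summed RPKM of 6 such markers was 153 to 1179 in ECs, 17.2 to 168 in MSCs and 4.54 to 23.4 in MNCs. Of 5 tested, 3 were higher and 1 lower in ECs than in MSCs. Of 4 lymphatic endothelial markers tested, 2 were higher and 1 lower in ECs than in MSCs. None of these lists had a gene called between genotypes in ECs by edgeR.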
